A study of Homo sapiens with 7 samples.

Results

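IL6, IL24, IL8, IL11, LIF, CXCL1, CXCL2, CXCL3, CCL2 and CCL20 are 10 of the 18817 genes listed in at least 1 library of this study, and they were picked by symbol because these same libraries showed cytokine mRNAs going up under light. Their own levels over time are therefore given as a description, with no test. All 10 were found, and 9 had at least 10 counts in at least 3 libraries. CXCL1 did not. IL8 is the older symbol of CXCL8, and the gene symbols used here are those of the count tables.

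RNA came from H4, an established human neuroglioma line, carrying Cry2Olig-PKR (opto-PKR). In this fusion, blue light clusters Cry2Olig and with it PKR, the eIF2 kinase whose activity slows translation and turns on the integrated stress response (ISR), which the study followed over time. Cells on fibronectin in glass-bottom wells were given 0, 60, 120, 240, 480, 600 or 720 min of unbroken blue light at 7.5 mcd and lysed at the end of it. Each of these 7 times is 1 library of 3′ transcript ends, made by an adaptation of CEL-Seq2 in which each molecule carries a unique molecular identifier (UMI). All 7 libraries, including the one at 0 min, carry opto-PKR. Unlit cultures lysed at the later times were not analysed here, so the effects of light and of time in the plate cannot be told apart. The labels do not say how many wells went into a library or whether the libraries came from separate cultures, and no time has a replicate. The intervals below are exact 95% intervals that cover counting error only. They take transcripts corrected for UMI collisions as if these had been counted, and leave out the error of the correction. That correction was largest at high counts: IL8 at 480 min went from 2576 UMIs to 4060 and CCL2 at 240 min from 2341 to 3472.

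The 6 complete libraries held 7048253 to 8911818 transcripts. The deposited table of the 480 min library ends, in alphabetical order, at NME1-NME2 and held 5266123 transcripts; all 10 cytokines lie before that point, and the library was scaled to the others over the genes it lists. Levels are CPM, counts per 1000000 transcripts of the scaled library. Of the glial and mesenchymal markers, VIM had 5160 to 6927 counts and CD44 3744 to 5904 where they were listed, while GFAP, S100B and FABP7 were listed in no library and AQP4 never passed 1 count. Summed over 12 immune and blood cell markers the level was 8.70 to 16.3 CPM. Most of that level came from CD68, LYZ and ITGAM. CD68 had 67, 57, 45, 45, 65, 69 and 48 counts in time order. LYZ had 20, 11, 11, 14, 17, 22 and 50, and ITGAM 12, 7, 8, 43, 72, 48 and 14. The leukocyte marker PTPRC had 0 to 3 counts where it was listed, and CD3E, MS4A1, AIF1 and HBB were listed nowhere. The part of immune and blood cells in the cytokine levels was not tested. As these are bulk libraries, a change in the number of cells that make a cytokine and a change in mRNA per cell cannot be told apart.

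Cytokines are small secreted proteins through which cells signal to each other. IL6, IL11 and LIF act on receptors that share the chain gp130 (gene IL6ST) and signal through JAK kinases and STAT3, with SOCS3 as a feedback inhibitor. IL24, of the IL10 family, signals through receptors that contain IL20RB. IL8, CXCL1, CXCL2 and CXCL3 attract neutrophils through CXCR2, CCL2 attracts monocytes through CCR2, and CCL20 attracts lymphocytes and dendritic cells through CCR6. Many genes of this kind are switched on by NF-kappaB, AP-1 and C/EBP factors, and their mRNAs often carry AU-rich elements in the 3′ untranslated region that make them short-lived.

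Promoter sequences from RefSeq (GRCh38.p14) were found for 8 of the 10 genes, all but CCL2 and LIF. On either strand of the 250 bases before the start, the NF-kappaB-type word GGANTTTCC was in 5 of these 8, namely IL6, IL8, CXCL1, CXCL2 and CXCL3, and in 1.45% of all 35116 promoters in the table. The 4 of these genes with clear levels are printed below, with IL24, which had no match to any word searched, for contrast. Each line holds 180 bases, 5′ to 3′ on the strand of the gene, that end where transcription starts, and capitals mark the matched words. The windows are chr7:22727020-22727199 (plus strand) for IL6, chr4:73740389-73740568 (plus) for IL8, chr4:74099196-74099375 (minus) for CXCL2, chr4:74038690-74038869 (minus) for CXCL3 and chr1:206897263-206897442 (plus) for IL24.
IL6: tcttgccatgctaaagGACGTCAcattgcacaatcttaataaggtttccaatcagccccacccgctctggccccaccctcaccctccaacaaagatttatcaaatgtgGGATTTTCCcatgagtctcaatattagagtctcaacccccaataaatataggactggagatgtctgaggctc
IL8: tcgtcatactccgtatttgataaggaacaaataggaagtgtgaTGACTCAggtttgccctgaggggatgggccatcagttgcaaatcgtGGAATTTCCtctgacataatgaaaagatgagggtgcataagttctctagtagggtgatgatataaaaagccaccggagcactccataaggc
CXCL2: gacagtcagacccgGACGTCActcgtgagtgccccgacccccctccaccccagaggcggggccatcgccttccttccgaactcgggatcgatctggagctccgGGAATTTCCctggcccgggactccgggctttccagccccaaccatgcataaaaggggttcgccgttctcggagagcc
CXCL3: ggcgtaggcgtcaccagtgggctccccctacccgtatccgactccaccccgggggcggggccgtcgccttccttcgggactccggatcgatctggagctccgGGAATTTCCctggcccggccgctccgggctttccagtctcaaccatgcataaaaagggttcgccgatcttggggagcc
IL24: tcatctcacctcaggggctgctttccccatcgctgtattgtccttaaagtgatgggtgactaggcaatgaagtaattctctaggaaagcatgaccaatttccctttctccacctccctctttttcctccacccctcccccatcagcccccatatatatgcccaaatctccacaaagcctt

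The NF-kappaB-type word began 72 bases before the start in IL6, 91 in IL8, 77 in CXCL2 and 78 in CXCL3, and its letters were GGAATTTCC in IL8, CXCL2 and CXCL3 and GGATTTTCC in IL6. IL6 and CXCL2 also held the cyclic AMP response word GACGTCA, which was in 2 of the 8 genes and in 3.12% of all promoters. The AP-1 word TGANTCA was in IL8 and IL11, 2 of the 8, and in 6.57% of all promoters. TGATGNAA, a word bound by C/EBP and ATF pairs, was in 0 of the 8 and in 3.14% of all promoters. No match overlapped another. Over 250 bases the promoters of CXCL2 and CXCL3 were identical at 83.3% of aligned positions, those of CXCL1 and CXCL3 at 86.8%, and those of CXCL1 and CXCL2 at 74.5%. The words were picked after these sequences had been read, and a match is a description of letters, not a site shown to be bound.

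The cytokines separated by when they were highest. At 240 min IL6, IL24, LIF, CCL2 and CCL20 were highest, at 480 min IL8 and CXCL3, and the last were IL11 (600 min) and CXCL2 (720 min). Among 1052 genes named up to NME1-NME2, with at least 50 counts in 1 library and a highest level at least 2-fold that at 0 min, 43.0% were highest at 240 min. For 60, 120, 480, 600 and 720 min the shares were 1.52%, 5.51%, 26.9%, 7.22% and 15.9%. The summed level of the 10 genes was 162, 487, 813, 1304, 860, 753 and 672 CPM in time order. IL8 made up 18.6% of that sum at 0 min and 47.7% at 480 min.

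**Figure D1:**
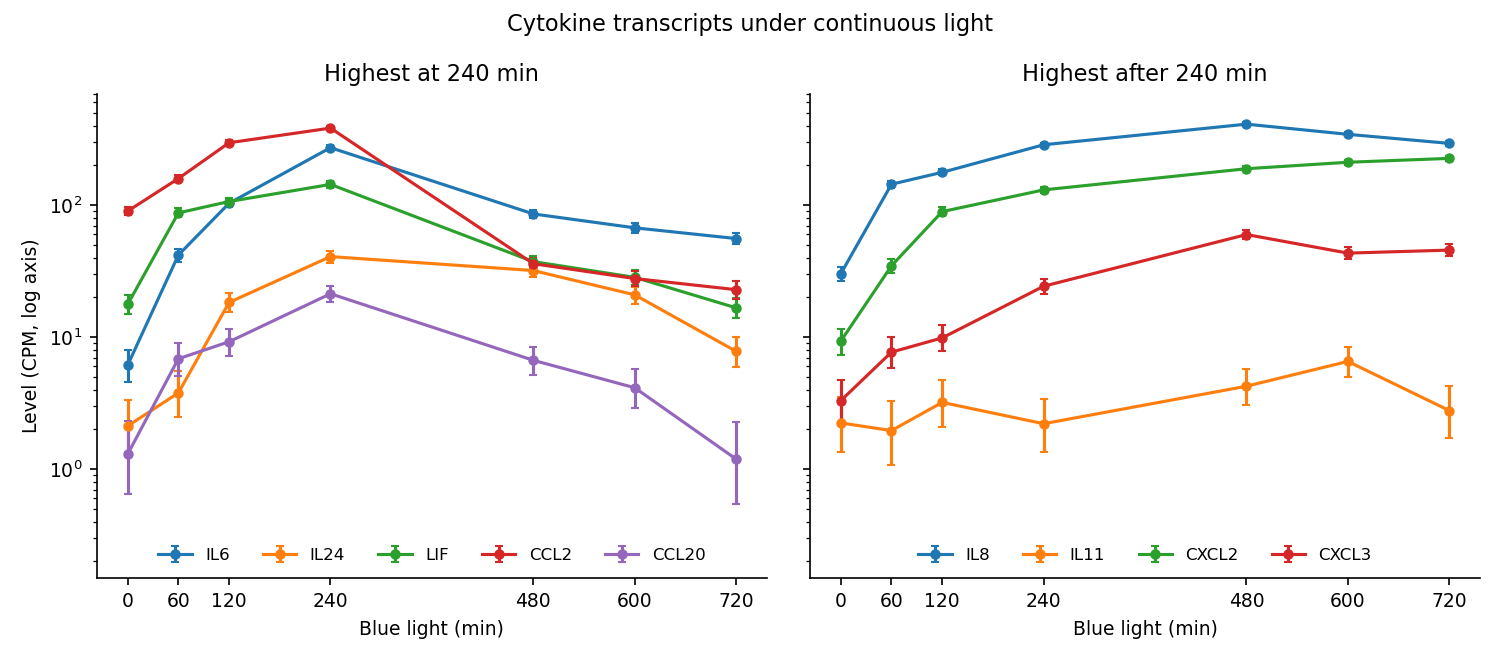
Level of each cytokine (CPM, log axis) against minutes of blue light, 1 library per time, with bars for the exact 95% counting interval. The left panel holds the 5 cytokines that were highest at 240 min and the right panel the 4 that were highest later; IL6 stands at 272 CPM at 240 min and CXCL2 at 226 CPM at 720 min.

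Of the group that was highest at 240 min, IL6 had the largest fold over 0 min. IL6, the interleukin that drives the acute-phase response, stood at 6.12, 41.8, 103, 272, 85.7, 67.2 and 55.7 CPM at 0, 60, 120, 240, 480, 600 and 720 min, from 52, 299, 806, 2467, 848, 586 and 422 counts. Its level at 240 min was 44.4-fold (interval 33.8 to 59.7) that at 0 min and 2.64-fold (2.44 to 2.86) the next highest, at 120 min. At 720 min IL6 held 20.5% of its highest level and was still 9.11-fold (6.82 to 12.4) above 0 min.

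IL24 was later in starting. Its level was 2.12, 3.77, 18.3, 40.7, 31.9, 20.9 and 7.79 CPM in time order, from 18, 27, 143, 369, 316, 182 and 59 counts. At 60 min it was 1.78-fold its level at 0 min, with an interval of 0.945 to 3.43 that includes no difference, and at 240 min it was 19.2-fold (12.0 to 32.8). IL24 lost less than IL6 after 240 min: at 480 min it held 0.784 (0.673 to 0.914) of its 240 min level, and IL6 held 0.315 (0.291 to 0.341). By 720 min the shares left were 19.2% (14.3 to 25.3) for IL24 and 20.5% (18.4 to 22.7) for IL6, which overlap within their intervals.

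LIF, a gp130 cytokine like IL6, made the largest part of its gain by 60 min. It stood at 17.7, 87.2, 106, 143, 37.3, 28.3 and 16.6 CPM, from 150, 624, 831, 1300, 369, 247 and 126 counts. At 60 min LIF had covered 55.3% of the distance between its level at 0 min and its highest level. The same share at 60 min was 29.9% for IL8, 27.8% for CCL20, 23.5% for CCL2, 13.4% for IL6, 11.7% for CXCL2, 7.77% for CXCL3 and 4.29% for IL24. LIF at 720 min was 0.943-fold (0.738 to 1.20) its level at 0 min, an interval that includes no difference.

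CCL2, the monocyte chemokine, was the one gene of the set that ended well under its start. It stood at 89.9, 159, 296, 383, 36.0, 27.8 and 22.9 CPM, from 764, 1136, 2316, 3472, 356, 242 and 173 counts. At 240 min it was 4.26-fold (3.94 to 4.61) its level at 0 min, and at 720 min 0.254-fold (0.214 to 0.300). Between 240 and 480 min, with no library in between, CCL2 became 10.6-fold (9.55 to 11.9) lower, the largest loss over that step among the 9 cytokines with clear counts.

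CCL20, the ligand of CCR6, was low throughout but had a sharp top. It stood at 1.30, 6.85, 9.21, 21.3, 6.67, 4.13 and 1.19 CPM, from 11, 49, 72, 193, 66, 36 and 9 counts. Its level at 240 min was 16.4-fold (8.98 to 33.5) that at 0 min and 2.31-fold (1.75 to 3.07) that at 120 min. At 720 min the 9 counts gave 0.918-fold (0.336 to 2.44) the level at 0 min, which was not distinguishable from the start at this depth.

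IL8, CXCL2 and CXCL3, the neutrophil chemokines with clear counts, followed another course and were not below their 240 min level at 720 min. From 480 to 720 min IL8 and CXCL3 went down, to 0.715 (0.679 to 0.753) and 0.762 (0.665 to 0.872) of their 480 min levels, and CXCL2 was at 1.20 (1.12 to 1.28). IL8 stood at 30.1, 144, 177, 286, 410, 343 and 293 CPM, from 256, 1029, 1383, 2595, 4060, 2994 and 2220 counts. It was 4.77-fold (4.16 to 5.49) its level at 0 min after 60 min and 13.6-fold (12.0 to 15.5) at 480 min. At 720 min IL8 was at 1.02-fold (0.968 to 1.08) its 240 min level, while IL6 was at 0.205-fold (0.184 to 0.227) of its own. At so high a count the correction for UMI collisions is steep: the fold at 480 min was 3.77 on the log2 scale from collision-corrected transcripts, 3.17 from uncorrected UMIs and 4.32 from reads.

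CXCL2 was higher at each later time. It stood at 9.30, 34.7, 89.2, 130, 188, 211 and 226 CPM, from 79, 248, 697, 1181, 1866, 1839 and 1709 counts. Its level at 720 min was 24.3-fold (19.4 to 30.8) that at 0 min and 1.07-fold (1.00 to 1.14) that at 600 min, so the last step is at the edge of counting error. CXCL3 stood at 3.30, 7.69, 9.85, 24.3, 59.8, 43.2 and 45.6 CPM, from 28, 55, 77, 220, 592, 377 and 345 counts. Its largest step in CPM came late, from 24.3 at 240 min to 59.8 at 480 min. As a fold that step was 2.46 (2.11 to 2.89), and the step from 120 to 240 min was also 2.46 (1.89 to 3.23). At 480 min CXCL3 was 18.1-fold (12.4 to 27.5) its level at 0 min.

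CXCL1, the closest relative of these chemokines, had 0, 0, 5, 5, 1, 1 and 3 counts after rounding, with 1 read per UMI. Before rounding it had 4.67, 5.00, 0.667, 0.667 and 2.67 transcripts at 120, 240, 480, 600 and 720 min. No fold is given for it. A count of 0 at 0 min allows up to 0.353 CPM (3 counts). CXCL1, CXCL2 and CXCL3 are related copies on chromosome 4, and the labels do not say how reads that match several of them were assigned. In GENCODE 29 transcripts, CXCL1 and CXCL2 share 10.2% of the 50-base words in their last 500 bases, and CXCL3 shares none with either. CXCL3 nonetheless had UMI counts that were not whole, 551.5 at 480 min and 330.5 at 720 min, as CXCL1 and CXCL2 did. With which genes these were shared is not given, so a part of the counts of all 3 could be divided wrongly. In the same chromosome 4 cluster, CXCL5 had at most 3 counts and CXCL6 at most 1, so 3 of its 6 listed chemokines carried nearly all of the counts.

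IL11, the remaining gp130 cytokine, differed from the rest in size and in time. It stood at 2.24, 1.96, 3.20, 2.21, 4.24, 6.54 and 2.77 CPM, from 19, 14, 25, 20, 42, 57 and 21 counts. At 600 min it was 2.92-fold (1.71 to 5.20) its level at 0 min, and at 60, 120, 240 and 720 min the intervals of its fold included 1. Its level at 600 min was 1.54-fold (1.02 to 2.35) that at 480 min.

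**Figure D2:**
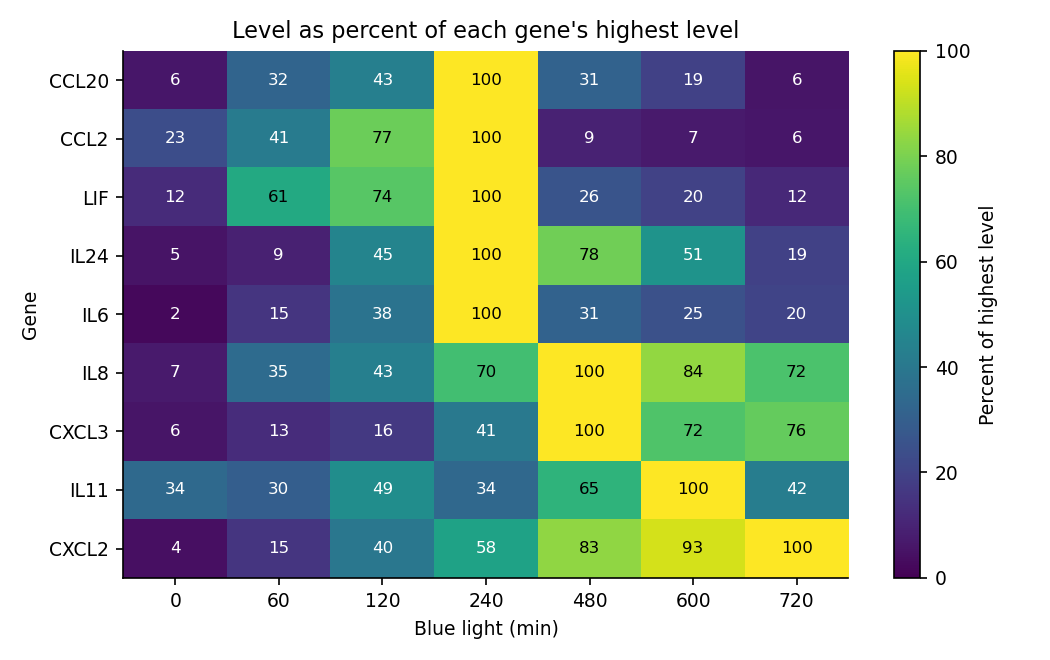
Each cytokine's level as a percent of its own highest level (colour and printed value) at each time, with rows in order of the time of the highest level. LIF is already past the middle of its range at 60 min, CCL2 and CCL20 keep 5.97% and 5.59% at 720 min, and IL8 keeps 71.5%.

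Counted together, 5 of the 6 cytokines that had 50 counts or more at one of the times compared were at least 2-fold higher at 60 min than at 0 min, against 2.19% of all genes that met the same minimum. At 120 min 8 of 8 were, against 5.63% of all genes, and by 240 min again 8 of 8, against 10.5%. At 480 min 7 of 8 were higher, against 9.63%, at 600 min 6 of 8, against 6.35%, and at 720 min 5 of 7, against 4.94%. At 60, 120 and 240 min 0 of them were at least 2-fold lower, against 0.411%, 3.11% and 6.13% of all genes. CCL2 was the 1 cytokine at least 2-fold lower than at 0 min, at 480, 600 and 720 min, where 6.4%, 4.59% and 4.64% of all genes were lower. The minimum could be met at the lit time alone. At 120 min this held for IL24 (18 counts at 0 min and 143 at 120 min), CXCL3 (28 and 77) and CCL20 (11 and 72). At 720 min CCL20 (11 counts at 0 min and 9 at 720 min) and IL11 (19 and 21) met it at neither time and were left out. The counts of cytokines are therefore a description, and the shares are printed as background, since the same contrasts chose the cytokines.

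Between 240 and 480 min 4 of 8 cytokines were at least 2-fold lower at 480 min, namely IL6, LIF, CCL2 and CCL20, against 2.61% of all genes, and CXCL3 was higher, against 2.09%. At 720 min against 240 min 5 of 8 were lower, with IL24 added, against 9.38% of all genes, and 0 were higher, against 6.0%. Set out from greatest to least loss, the level at 720 min over that at 240 min was 0.056 for CCL20, 0.060 for CCL2, 0.116 for LIF, 0.192 for IL24 and 0.205 for IL6. The intervals of CCL20 (0.025 to 0.108) and CCL2 (0.051 to 0.070) overlap, as do those of IL24 (0.143 to 0.253) and IL6. The interval of LIF (0.096 to 0.139) lies apart from those of CCL2 and IL24 but overlaps that of CCL20. For IL11, CXCL2 and CXCL3 the same ratio was 1.26 (0.649 to 2.45), 1.73 (1.61 to 1.87) and 1.88 (1.58 to 2.23).

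**Figure D3:**
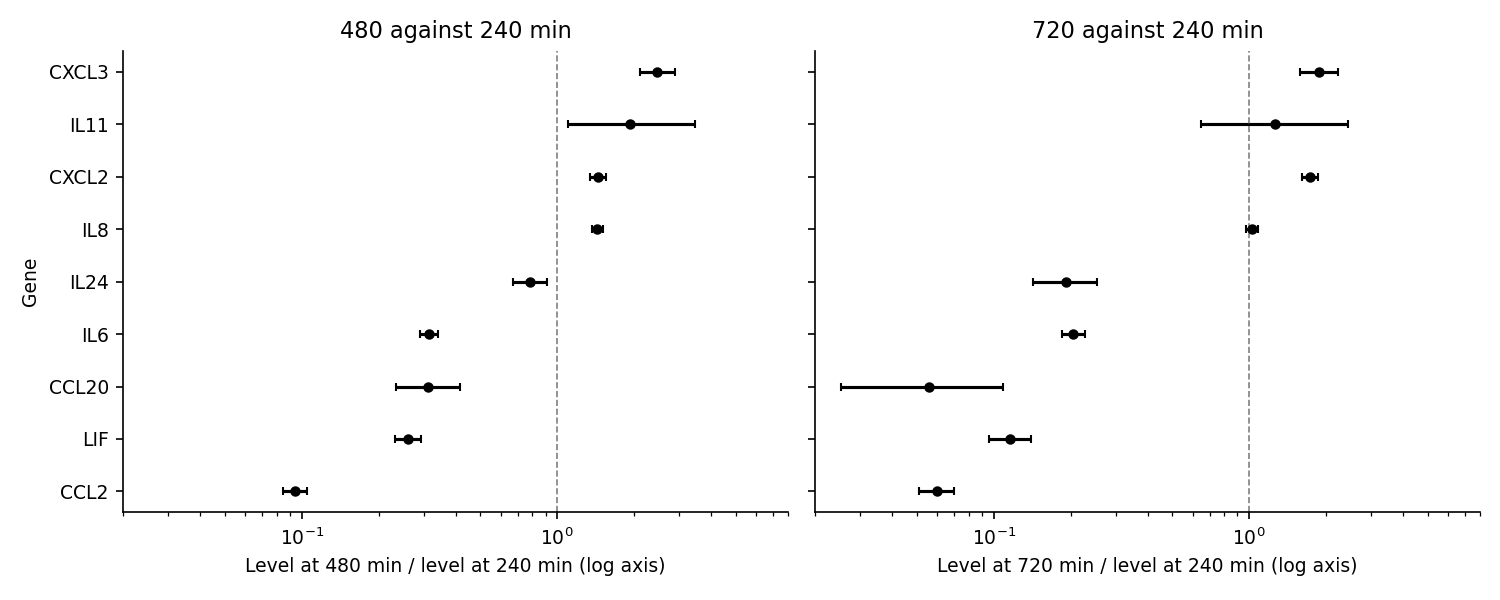
Level at 480 min and at 720 min over the level at 240 min for each of 9 cytokines (log axis, 1 library per time), with bars for the exact 95% counting interval and a line at no difference. CCL2 is lowest at 480 min at 0.094, and CXCL3 is highest at both times, at 2.46 and 1.88.

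The shapes over the 7 times, as Pearson's r of log2 levels, paired IL8 with CXCL2 at 0.96, CXCL2 with CXCL3 at 0.94 and LIF with CCL20 at 0.94. IL6 and IL24 had r of 0.89, LIF and CCL2 0.85, and CCL2 and CXCL3 -0.56. The points of each r share their libraries. Among the genes named up to NME1-NME2, 419 had at least 50 counts in 1 library and a 4-fold range over 7 times. These include cytokines of the set, and genes with later names were not compared. Outside the set, those most like IL6 were LOC388796 (r 0.987), KLF15 (0.982), ID4 (0.981), INHBA (0.980) and NFIL3 (0.980). NFIL3, a basic leucine zipper repressor, stood at 34.6, 74.5, 158, 221, 116, 96.1 and 83.5 CPM. Those most like IL24 were LOC389765 (0.992), CSGALNACT2 (0.979), ATAD2B (0.973), LOC442028 (0.971) and CYP1A1 (0.963). CYP1A1, a target of the aryl hydrocarbon receptor, stood at 8.71, 20.3, 34.9, 92.1, 108, 59.9 and 24.4 CPM. These rankings depend on the counts and the depth used: with read counts 3 of the 5 named for IL6 stayed in its top 5, and at equal depth 3 of the 5 named for IL24.

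All 10 cytokine mRNAs matched a GENCODE 29 transcript, and all but CCL2 held the AU-rich word TATTTAT in the 3′ untranslated region, against 26.0% of 19109 genes. The shorter word ATTTA occurred 6 times in IL6, 3 in IL24, 7 in LIF, 1 in CCL2 and 3 in CCL20, the 5 that were highest at 240 min. It occurred 9 times each in IL8 and IL11, 10 in CXCL2, 7 in CXCL3 and 5 in CXCL1, and the median over all genes was 1. These regions differ in length, from 376 bases in CCL2 to 3204 in LIF. Per kb there were 14.1 in IL6, 3.72 in IL24, 2.18 in LIF, 2.66 in CCL2 and 6.65 in CCL20. IL8 had 7.19, IL11 5.56, CXCL2 13.9, CXCL3 10.4 and CXCL1 7.08, against a median of 1.24. As many per kb as in LIF, CCL2 and IL24 were found in 36.2%, 29.9% and 18.2% of genes.

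Other genes of the same pathways were tested from lists that leave the 10 cytokines out. With 1 library per time, 2 regressions over time were fitted to all 13566 genes that passed the count filter (edgeR's quasi-likelihood test, Benjamini-Hochberg adjustment over all of them). The trend is the fitted log2 change over the 720 min. The bend is how far the fitted curve at 360 min, in log2, lies above the middle of its own values at the start and the end, so it is positive where a gene was high midway. A trend upward was called for 3.9% of all genes and downward for 2.96%, and a bend upward for 17.5% and downward for 13.7%; the median over all genes was -0.02 for the trend and 0.01 for the bend. The residual spread of these fits mixes noise with departure from the fitted shape. Over the 5 lists together 38 bends were upward and 9 downward, against 16 and 5 without the 240 min library. Log time means that minutes were replaced by their log2 after adding 60. Leaving out the 0 min library gave 5 downward bends. Upward trends numbered 8, against 4 without the 120 min library, and 2 if the 60 or the 600 min library was left out. Downward trends numbered 6, against 13 with DESeq2, 18 without the 0 min library, 1 without the 60 min library, 2 without the 120, the 480 or the 720 min library, and 0 if the 600 min library was left out. Genes given at the end of a paragraph as the others called were named after their values were seen.

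Of 52 other cytokine symbols, 46 were listed and 20 had enough counts to test. IL1B had 0 to 3 counts, CSF2 0 to 3, IFNB1 0 to 1 and TNF at most 14, at 240 min, and CSF3 was listed in no library. IL1A, the alarmin form of interleukin 1, rose (trend 3.97 ± 0.85 SE, adjusted p = 0.026) and bent upward (2.36 ± 0.27, adjusted p = 4.4e-04, and 0.380 with log time), at 1.18, 1.54, 4.61, 9.15, 29.5, 23.5 and 15.5 CPM. TSLP, an epithelial cytokine, rose too (trend 3.12 ± 0.60, adjusted p = 0.022), at 2.71, 4.47, 7.55, 19.6, 33.3 and 31.2 CPM at the 6 times other than 480 min. Both trends missed the threshold without the 60, the 120 or the 600 min library, at adjusted p of 0.074 to 0.111 for IL1A and 0.067 to 0.130 for TSLP. CCL5, a T cell chemokine, bent downward (-1.75 ± 0.24, adjusted p = 8.4e-04), with 41.3, 28.7, 13.7, 13.2, 15.4, 21.6 and 38.3 CPM, and so did IL10 (-1.54 ± 0.31, adjusted p = 0.004) and MIF (-0.61 ± 0.14, adjusted p = 0.007, and 0.059 without the 0 min library). In all, 4 trends were upward and 2 downward, and 4 bends upward and 4 downward, with a median bend of 0.29. CLCF1, a gp130 ligand, passed neither test, but its bend was called with log time (0.84, adjusted p = 0.028) and its trend without the 0 min library (-1.16, adjusted p = 0.027). The others called were IL32, TNFSF9, IL7, CCL26, IL18 and LTB, each of which missed the threshold with at least 1 library left out. LTB had 1, 2, 3, 17, 15, 16 and 0 counts and passed the count filter only through the times where it was high, so its call too is given as a value only.

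The receptors of these cytokines moved in both directions. Of 17 symbols 15 were listed and 10 tested; CXCR1 and CCR2 were listed in no library and CXCR2 had at most 4 counts. IL20RB, a chain of the IL24 receptor, rose (trend 3.26 ± 0.44, adjusted p = 0.005), at 4.71, 5.31, 5.89, 10.8, 35.6, 31.8 and 30.1 CPM, a call that held in all 15 alternatives. IL22RA1, the chain it pairs with in one IL24 receptor, was called downward (trend -3.83 ± 0.60, adjusted p = 0.008), from only 13, 14, 14, 6, 3, 2 and 1 counts. It passed the count filter through the 0, 60 and 120 min libraries, where it was high, and could not be fitted without any one of them, and it missed the threshold without the 600 min library (adjusted p = 0.060), so its call is given as a value only. IL6ST, the gp130 chain, rose (trend 1.03 ± 0.19, adjusted p = 0.015), at 288, 367, 369, 465, 617, 627 and 571 CPM, and missed the threshold without the 60, the 120 or the 600 min library (adjusted p of 0.053 to 0.089). LIFR, which pairs with gp130 for LIF, bent upward (1.01 ± 0.18, adjusted p = 0.002), at 99.4, 162, 152, 171, 124, 94.5 and 57.5 CPM. OSMR bent upward (0.67 ± 0.17, adjusted p = 0.012, and 0.158 without the 240 min library or 0.170 with log time) and IL27RA downward (-0.87 ± 0.19, adjusted p = 0.006, and 0.126 with log time). IL6R bent downward (-1.04 ± 0.32, adjusted p = 0.026), and missed the threshold without the 60, 240, 480 or 720 min library (0.051 to 0.236). IL20RB and IL6ST were also called for a bend upward, which turned to -0.61 and to -1.6e-05 with log time and was then not called. Both bends also missed the threshold without the 480 or the 720 min library. Leaving out the 0 min library did the same for IL6ST. In all, 2 trends were upward and 2 downward, and 4 bends upward and 3 downward, with a median bend of -0.14. CCRL2, an atypical receptor, had 1 to 4 counts. The other called was IL11RA, downward in both tests, each of which missed the threshold with at least 1 library left out.

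Of the JAK-STAT and SOCS list, 22 of 24 genes were tested. The trend was called for 0 of them by edgeR, where 5 had an unadjusted p under 0.05, and for 3 by DESeq2, all downward. The bend was upward for 8 and downward for 0, with a median of 0.62. JAK2 bent upward (1.51 ± 0.22, adjusted p = 0.001), at 7.06, 10.1, 11.9, 18.2, 15.0, 9.64 and 5.94 CPM. SOCS5 (1.70 ± 0.25, adjusted p = 9.2e-04), SOCS2 (1.81 ± 0.31, adjusted p = 0.002), STAT5B (0.88 ± 0.20, adjusted p = 0.006) and the kinase PIM1 (2.54 ± 0.52, adjusted p = 0.012) were called as well. SOCS2, STAT5B and PIM1 missed the threshold without the 240 min library, at adjusted p of 0.109, 0.153 and 0.118, and PIM1 without the 0 min library (0.065). STAT5B was not called with log time either (0.301). SOCS3, the inhibitor of gp130 signalling, had 68.6, 210, 450, 362, 57.4 and 64.2 CPM at the times other than 480 min and passed neither test (bend adjusted p = 0.238), as did STAT3 and JAK1. The bend of SOCS3 was called with log time (2.75, adjusted p = 0.001) and its trend without the 0 min library (-3.15, adjusted p = 0.019). That of STAT3 was called with UMI counts, read counts or the 0 or the 120 min library left out (adjusted p of 0.029 to 0.049). The others called were SOCS4, SOCS6 and PTPN2, each lost without the 0 or the 240 min library.

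All 31 transcription factors and inhibitors on the list were tested, and 12 bent upward and 1 downward, with a median bend of 0.87. TNFAIP3, which encodes the NF-kappaB inhibitor A20, had the largest of these bends (3.96 ± 0.65, adjusted p = 0.008), at 6.48, 25.0, 51.7, 84.0, 10.6 and 5.55 CPM at the times other than 480 min. NFKBIE, an inhibitor of the same pathway, bent upward (1.95 ± 0.26, adjusted p = 8.4e-04), at 15.3, 27.0, 39.7, 66.5, 36.2, 26.5 and 14.9 CPM. The subunits RELB (1.79 ± 0.28, adjusted p = 0.001), NFKB2 (1.22 ± 0.22, adjusted p = 0.003) and NFKB1 (0.90 ± 0.16, adjusted p = 0.003) were called, and RELA and REL were not. CEBPG (1.14 ± 0.16, adjusted p = 8.5e-04) and CEBPB (0.85 ± 0.26, adjusted p = 0.032), of the C/EBP family, and ATF3 (2.53 ± 0.59, adjusted p = 0.032), an ISR transcription factor, bent upward too. With log time NFKB1, NFKB2, CEBPG and RELB were not called, at adjusted p of 0.234, 0.337, 0.142 and 0.053. Without the 240 min library TNFAIP3, RELB, CEBPB and ATF3 missed the threshold, at adjusted p of 0.084, 0.071, 0.213 and 0.171. CEBPB was also lost without the 0 or the 60 min library (0.227 and 0.097), and ATF3 without the 600 or the 720 min library (0.054 and 0.062). With log time the bends of NFKBIA (1.51, adjusted p = 0.005) and CEBPD (2.10, adjusted p = 7.9e-04) were called, without the 480 min library that of NFKBIZ (0.029), and without the 720 min library those of CEBPD (0.049) and REL (0.042). Downward trends of NFKBIA (0.009 and 0.016) and CEBPD (7.8e-04 and 0.011) were called with DESeq2 or without the 0 min library, and that of CEBPD without the 240 min library (0.037). In the fit reported here NFKBIA, NFKBIZ, FOSL1 and CEBPD passed neither test; NFKBIA stood at 46.0, 85.7, 98.3, 96.6, 26.8, 23.9 and 31.7 CPM. The others called were NFKBIB and ATF4, with upward trends, FOS and EGR1, with downward trends, BIRC3, CHUK, IKBKB and FOSB, with upward bends, and CEBPA, with a downward bend. All of these but NFKBIB missed the threshold with at least 1 library left out. FOSB had 9, 10, 17, 25, 10, 8 and 4 counts. It passed the count filter only through the 60 to 480 min libraries, which include its highest levels, so its call is given as a value only.

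Of 24 genes that act on AU-rich mRNAs, all tested, 10 bent upward and 1 downward, with a median bend of 0.39. The trend was called for 0 by edgeR, where 1 had an unadjusted p under 0.05, and for 0 by DESeq2. RC3H1, the mRNA-decay factor roquin 1, bent upward (1.63 ± 0.24, adjusted p = 8.4e-04), at 18.1, 28.4, 38.7, 52.2, 26.3 and 17.6 CPM at the times other than 480 min. XRN1 (1.44 ± 0.22, adjusted p = 0.001), the 5′ exonuclease, and DCP2 (1.01 ± 0.16, adjusted p = 0.001) and DCP1A (0.84 ± 0.15, adjusted p = 0.002), of the decapping complex, were called, with TIA1 (0.91 ± 0.17, adjusted p = 0.0025). ZFP36, which encodes tristetraprolin, had 21.2, 54.4, 88.6, 35.8, 20.2 and 21.4 CPM at those times and passed neither test, as did ZC3H12A and MAPKAPK2. With log time the bends of ZFP36 (1.68, adjusted p = 0.011) and ZC3H12A (0.75, adjusted p = 0.009) were called, and without the 0 min library their trends (-2.06, adjusted p = 0.019, and -0.99, adjusted p = 0.041). The others called were ZFP36L1, ZFP36L2, ZC3H12C, AUH, CNOT1 and, downward, UPF1, each lost without the 240 min library.

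**Figure D4:**
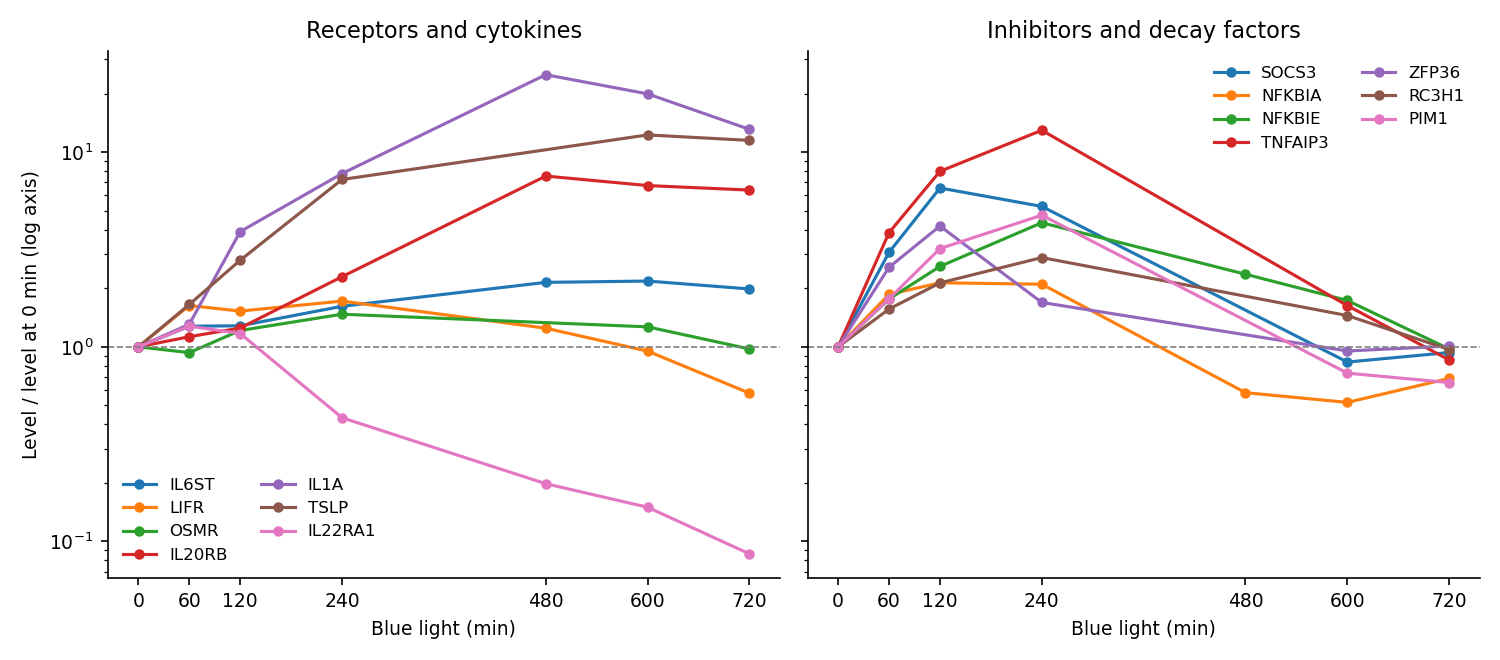
Level over the level at 0 min (log axis) of named cytokine and receptor genes (left) and inhibitor, kinase and decay genes (right) against minutes of blue light, 1 library per time, with a dashed line at no difference; a gene whose name falls after the end of the 480 min table has no point there. At 480 min IL1A is at 25.1-fold and IL20RB at 7.55-fold, TNFAIP3 is at 13.0-fold at 240 min, and IL22RA1 rests on 14 counts or fewer at every time.

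The genes next to the cytokines on the chromosome gave a last comparison. Places were counted in the RefSeq gene order among genes listed in these libraries, so genes listed in none were skipped. Of 30 neighbours within 2 such places of a cytokine, 8 had at least 50 counts at 0 or 240 min. At 240 min 3 of these 8 were at least 2-fold higher than at 0 min, against the 10.5% of all genes given above. They were FAM126A, FAIM3 and MTMR3. FAIM3 (41 counts at 0 min and 129 at 240 min) and MTMR3 (48 and 147) met the minimum only at 240 min, where they were higher. The count of neighbours is therefore given as a description only. FAIM3, beside IL24, stood at 4.83, 5.87, 8.57, 14.2, 18.9, 15.1 and 10.4 CPM. IL19 and IL20, family members on the other side of IL24, had at most 1 count, as did CCL7 and CCL8 beside CCL2 and OSM beside LIF. MTHFD2L, a mitochondrial folate enzyme next to CXCL2, had 18.8, 10.9, 11.6, 9.04, 37.8, 34.6 and 43.5 CPM, with its lowest level at 240 min.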

How the data were processed

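The authors deposited expected counts (not always whole) per gene and library as reads, UMIs and UMIs corrected for collisions (transcripts). BWA and the build hg19 are named per the submitters' processing notes; the labels give no versions, annotation or counting program. The column of barcode 4, the primer in the labels' protocols, was used, with transcripts rounded to whole numbers; the other 95 barcode columns (0.0448% to 0.0667% of transcripts) were not, nor were ERCC rows (at most 0.0124% of reads).

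Scaling was TMM over the 6 complete libraries. Ratios used exact binomial intervals (SciPy 1.17.1, Python 3.11.15). Trends and bends were fitted with edgeR 4.0.16 in R 4.3.3, tested on simulated data, for genes with 10 counts or more in 3 libraries or more. Genes up to NME1-NME2 were fitted to 7 libraries and those after it to 6, a change from the planned 7 made after the 480 min table was seen to be incomplete. DESeq2 1.42.0 was an alternative. Named were all 10 cytokines and, per list, up to 5 called genes of smallest adjusted p plus a fixed set. The cytokines and lists were chosen with earlier results of these data known.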

Additional observations from a re-analysis of the deposited data

How the results depend on the processing

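The time of the highest level was the same for each of 9 cytokines under UMI counts, read counts, other size factors, no TMM and equal depth, 45 results in all. Of 270 cytokine log2 ratios recomputed under those settings, 254 moved by less than their counting interval and 16 by more, all of them with UMI or read counts and for IL6, IL8, LIF and CCL2; CCL2 at 240 min was 1.68 with UMIs and 2.45 with reads, and IL6 5.47 in the main analysis and 6.01 with reads. Over all 5 pathway lists, trends called downward numbered 6, and 13 with DESeq2. Leaving out 1 library in turn gave 2 to 9 upward trends (8 with all), 0 to 18 downward (6 with all), 16 to 39 upward bends (38 with all) and 5 to 10 downward (9 with all). With log time the bends of IL18, IL20RB and IL6ST turned to -0.10, -0.61 and -1.6e-05. No paired analysis was possible because each time has 1 library. Depth limits CXCL1, IL11 and the last CCL20 value.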
